A study of Solanum lycopersicum with 30 samples.

Results

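The 200 tomato genes described here were those with the highest intervein over vein ratio in the leaves of watered plants. The leaf blade was dissected into a vein-enriched part and the intervein part between the veins, and RNA was counted gene by gene. The members were chosen among 13225 gene models (Solyc identifiers) that averaged at least 5 CPM (counts of a gene scaled to the total of its library, so that libraries of different depth compare) over the 9 watered intervein libraries. They were selected on the measured CPM of the 18 watered libraries alone, as the 200 with the highest log2 ratio of the watered intervein mean to the watered vein mean, with 1 CPM added to both. The count table held 34429 gene models and 35596 rows in all.

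The study followed drought and rewatering in 30 libraries, 3 for each of 10 groups, which are 5 conditions in intervein and 5 in vein tissue. Leaf 4 was taken before drought at T0, 25 days after sowing (watered), at T1, 29 days after sowing (drought, 6 days without water, or watered), and at T2 (recovered, 3 days after watering was resumed, or watered). Each pot held 300 g of soil, days had 16 h of light, and watered plants received 150 mL every other day. The labels give the species and no cultivar, the vein part was enriched for veins and not pure, and each condition has 3 plants, dissected into both tissues. Which intervein and vein libraries share a plant is not stated, so the tissue tests take them as independent. In bulk tissue, fewer cells of a type and less RNA per cell cannot be told apart.

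The blade between the veins consists mostly of mesophyll, the cells that carry out photosynthesis. Their chloroplasts capture light with the photosystems, pass electrons along carriers such as plastocyanin, and fix carbon dioxide with Rubisco, which is built of large and small subunits. Carbonic anhydrase interconverts carbon dioxide and bicarbonate. Photosynthesis genes commonly lose transcripts under drought.

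Library totals ran between 2718799 and 13641845 counts, and between 13740 and 20143 genes had at least 1 count. In watered plants the 200 genes took 3.64% to 25.3% of the counts of an intervein library, with a median of 9.64%, against 0.907% to 2.84% of a vein library, with a median of 1.23% (n = 9 each). These shares follow from the choice and are a description. Of the 200 genes, 170 to 197 had at least 1 count in a watered intervein library and 134 to 176 in a watered vein library.

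Among rewatered plants, 2 libraries stood away from their labels. The library labelled vein T2 recovered 2 held 13.9% of its counts on the 200 genes, where the other vein recovered libraries held 2.14% and 3.32%. The library labelled intervein T2 recovered 1 held 5.84%, where the other intervein recovered libraries held 16.5% and 12.6%. Counts of calls with edgeR, medians and the tests of named genes in recovered plants are therefore also given without both. Since the vein library taken out is the one with the largest share on these genes and the intervein library the one with the smallest, their removal by itself widens the tissue gap and is no support for it. Among drought vein libraries, number 2 held 2.03% against 0.605% and 0.772% in numbers 1 and 3, and among drought intervein libraries number 1 had the fewest genes detected, 13740.

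**Figure D1:**
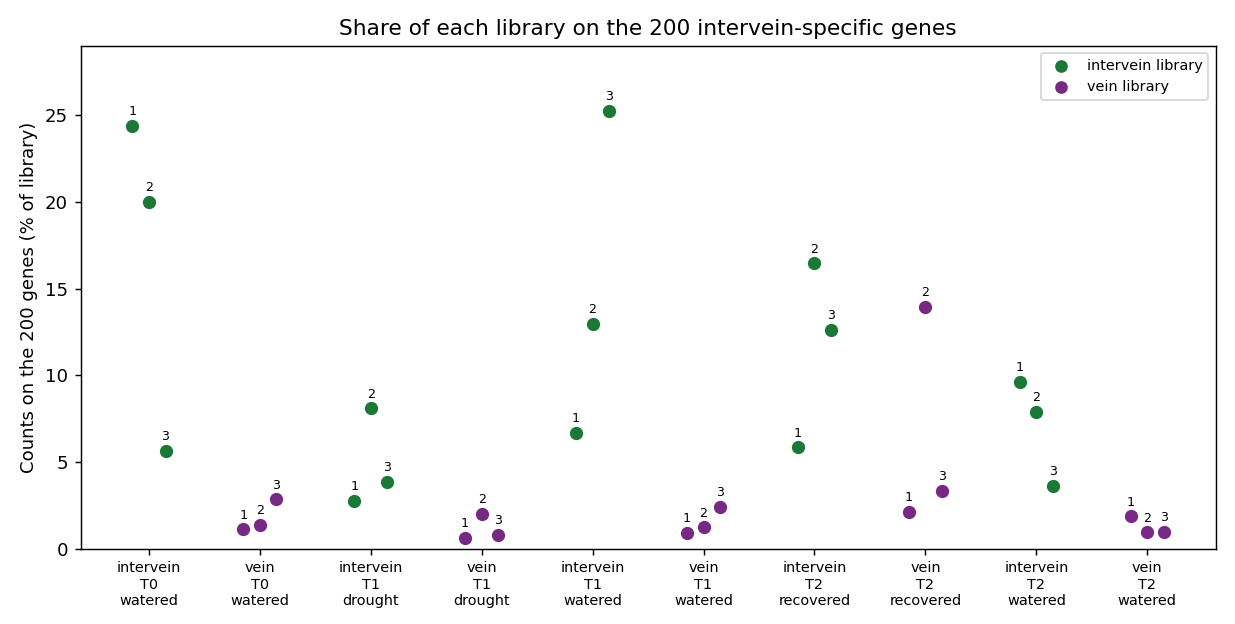
Share of each library's counts on the 200 genes, in percent (y axis), for the 10 groups (x axis), with 1 point per library and its replicate number. Watered intervein libraries lie between 3.64% and 25.3% and watered vein libraries between 0.907% and 2.84%, while the library labelled vein T2 recovered 2 lies at 13.9%.

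The watered log2 ratio of the members ran between 2.55 and 7.13, with a median of 3.00, while the median of all 13225 eligible genes was -0.25. The gene just inside the limit, Solyc09g083190 at rank 200, averaged 124 CPM in intervein and 20.4 CPM in vein, and Solyc09g089505 at rank 199 averaged 41.0 and 6.16 CPM. Just outside it, Solyc10g005050 at rank 201 averaged 948 CPM in intervein and 161 CPM in vein, and Solyc08g007130 at rank 202 averaged 283 and 47.6 CPM. The members thus grade into the genes that follow them without a gap. The ratio exceeded 1 on the log2 scale at T0, T1 and T2 alike for 186 of the 200 genes, with medians of 3.20 at T0, 3.00 at T1 and 2.58 at T2.

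The counts were spread over a wide range of levels. The watered intervein mean lay under 10 CPM for 16 members and under 1000 CPM for 178, with a median of 62.4 CPM in intervein and 6.25 CPM in vein. The 3 genes with the most counts held 44.5% of the members' summed CPM. These CPM values are not divided by gene length, so they give each gene's part of the counts and not its relative transcript number. In 86 members every watered intervein library lay above every watered vein library, as in 395 of all 13225 eligible genes. The same libraries chose the genes, so these counts are a description. In all 9 watered vein libraries together, 4 members had 0 counts.

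The highest rank belonged to Solyc07g041920 (UniProt entry A0A3Q7H8G2), which has no name in the files. It had 36.8 CPM in the lowest, 141 CPM in the median and 1124 CPM in the highest watered intervein library, against 0, 1.00 and 6.33 CPM in the watered vein libraries. The next ranks were Solyc02g067050 with averages of 74.1 CPM in intervein and 0.702 CPM in vein, and Solyc09g008670 with 143 and 2.50 CPM. The entry of Solyc09g008670, P25306, is threonine dehydratase, with the RefSeq symbol TD2. Threonine dehydratase deaminates threonine on the way to isoleucine. In tomato it also occurs as a form that serves in defence against chewing insects, and this gene was listed here under defence. Solyc02g080610, at rank 4, differed by time point and plant and not only by tissue. It stood at 33.7 to 88.3 CPM in 5 of the 6 watered intervein libraries of T1 and T2, but at 0.368 CPM in watered T2 library 1. At T0 its log2 ratio, with 1 CPM added to both tissues, was 0.07. The fold between its highest and lowest watered intervein library was 795. At levels near 0 the added 1 CPM pulls the ratio towards 0, so the T0 ratio does not show equal expression.

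Members differed in how even they were among watered intervein plants. The fold between the highest and the lowest of the 9 libraries had a median of 12.7 over the members, against 4.38 over the eligible genes. It was under 5 for 39 members and over 100 for 47. Those over 100 include members with 0 counts in their lowest library, such as Solyc06g069730, for which no finite fold exists. Solyc12g042770 was the most even, at 295 CPM in the lowest, 376 CPM in the median and 650 CPM in the highest watered intervein library, against 40.9, 58.8 and 86.0 CPM in the vein libraries. Solyc01g006560, rank 7, had 104, 156 and 267 CPM in intervein and 1.53, 3.86 and 7.24 CPM in vein. These 2 genes separated the tissues in every watered plant with a narrow spread. At the other end, the values of Solyc06g069730 ran between 0 and 818 CPM among the watered intervein libraries.

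Much of the spread was shared. Over the 9 watered intervein libraries, the level of 91 of the 199 other members had a Spearman rho above 0.8 with the Rubisco small subunit gene of the most counts, Solyc02g085950, and the median rho was 0.78. Among the eligible genes 4.45% had a rho above 0.8, and their median was -0.45. The points share library totals, and these genes take a large part of the counts, so rho is given as a description. For 50 members rho was below 0. Carbonic anhydrase (Solyc02g086820) was at 0.95, PsbS (Solyc06g060340) at 0.92, Solyc01g006560 at -0.22 and threonine dehydratase at 0.

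Neighbouring identifiers recurred among the members. In 13 pairs, holding 24 members, the identifier numbers on the same chromosome lay at most 50 apart. The handling of reads that map to several places is not given, so counts of near-identical neighbours, and of the Rubisco small subunit genes, may be split between copies.

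A set of 12 photosynthesis genes was recognised by UniProt entries whose protein names come from general knowledge. It is not a full list, so its part among the members is no share of all photosynthesis genes. Of the 12, 6 were members. They were 3 Rubisco small subunit genes, namely Solyc02g085950 (P05349), Solyc03g034220 (P07179) and Solyc02g063150 (P08706, rbcS1), together with carbonic anhydrase Solyc02g086820 (Q5NE20), plastocyanin Solyc04g082010 (P17340) and Solyc06g060340 (P54773). The last encodes PsbS, a photosystem II protein that switches on the harmless release of excess light energy as heat. The 6 that were not members had watered log2 ratios between 1.35 and 1.96. They encode PsbO of the oxygen-evolving complex, PsaD of photosystem I, 3 light-harvesting proteins and a second carbonic anhydrase.

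Rubisco small subunit counts were the largest of the set. Solyc02g085950 had 5654 CPM in the lowest, 24284 CPM in the median and 74653 CPM in the highest watered intervein library, against 748, 2071 and 7998 CPM in watered vein libraries. Solyc03g034220 had 3471, 14952 and 33155 CPM in intervein and 1104, 1711 and 3551 CPM in vein. For rbcS1 the values were 1197, 4252 and 19166 CPM in intervein and 397, 703 and 1677 CPM in vein. For all 3 genes the lowest intervein libraries lay below the highest vein library, and the tissues overlap in single plants.

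The carbon dioxide and electron transport members spread further. Carbonic anhydrase Solyc02g086820 had 32.6 CPM in the lowest, 1305 CPM in the median and 11937 CPM in the highest watered intervein library, against 19.7, 67.4 and 1082 CPM in vein libraries. Plastocyanin Solyc04g082010 had 693, 871 and 4314 CPM in intervein, all above the 140, 293 and 462 CPM in vein. PsbS Solyc06g060340 had 21.7, 301 and 1596 CPM in intervein and 28.4, 46.9 and 144 CPM in vein, with 1 intervein library below every vein library.

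**Figure D2:**
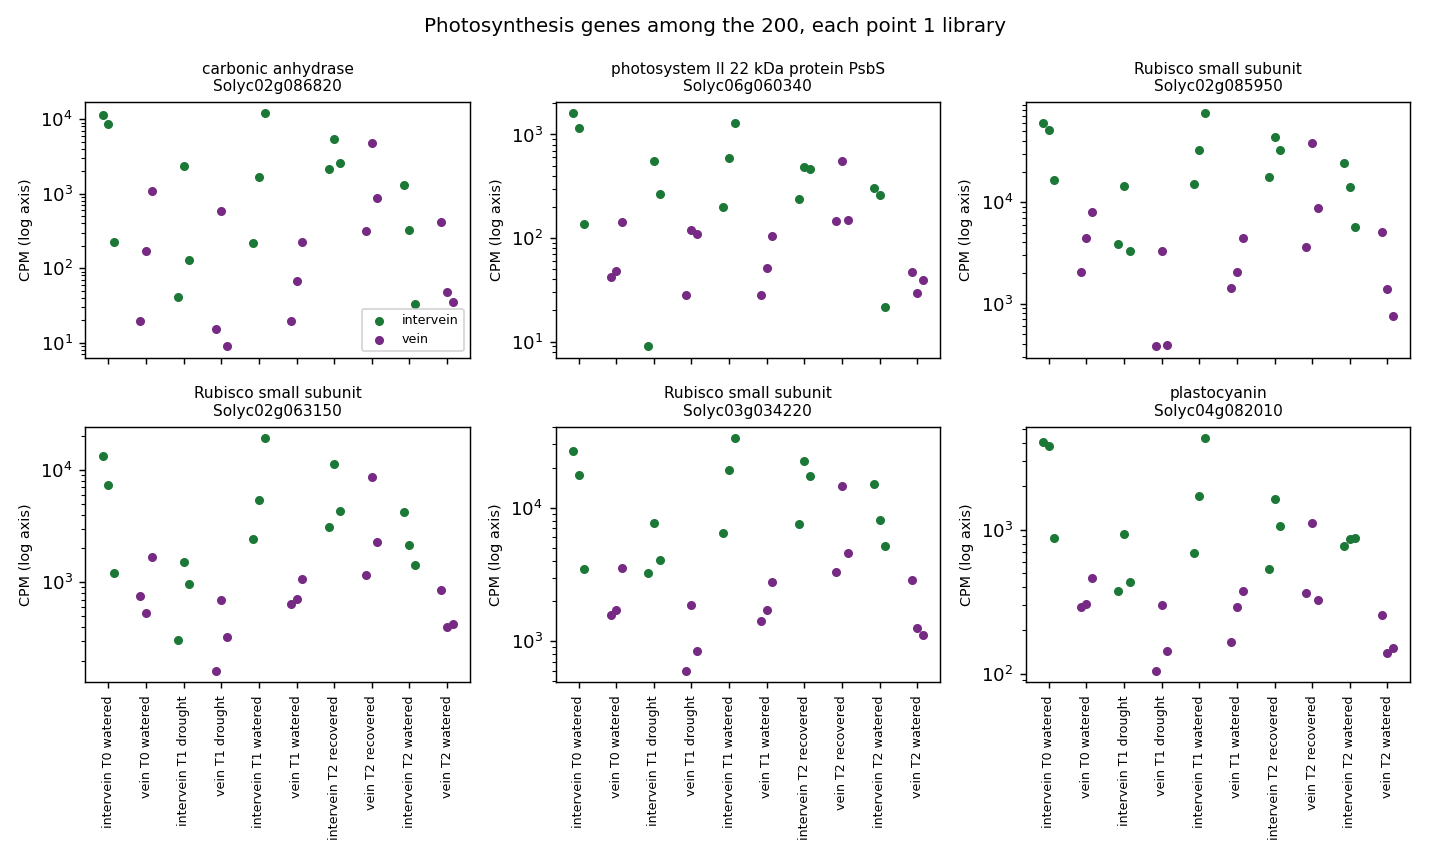
CPM on a log axis (y) of the 6 photosynthesis members in each library, by group (x axis), intervein in green and vein in purple, 1 point per library. Points of 1 tissue and group spread widely, and the drought intervein points of rbcS1 (Solyc02g063150) all lie below those of watered intervein libraries of T1.

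Other recognisable members served defence and nitrogen uptake. The metallocarboxypeptidase inhibitor gene Solyc07g007250 (P01076), whose small protein blocks the digestive carboxypeptidases of insects, averaged 198 CPM in watered intervein and 23.0 CPM in watered vein libraries. AMT1-3 (Solyc03g045070, Q9FVN0), an ammonium transporter, averaged 33.1 and 3.30 CPM. Lists of epidermis, guard cell, trichome, phloem and xylem markers could not be looked up, because the files carry no gene descriptions, so those cell types were not checked here.

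Drought plants had no part in the choice of the genes, and they carried the tissue difference on. In the drought libraries of T1, 186 of the 200 genes had a fitted log2 fold change above 0 between intervein and vein, and 176 exceeded 1. The median was 2.17, against -0.06 over all 19431 rows tested. In 73 members all 3 intervein libraries lay above all 3 vein libraries, where 7.27% of all rows did so, and in 0 members all lay below, where 17.7% of all rows did so. The edgeR quasi-likelihood test with Benjamini-Hochberg adjustment called 3 members higher in intervein and 0 lower, beside 0.314% and 0.592% of all rows; 94 members had an unadjusted p under 0.05. DESeq2 called 51 members higher and 1 lower, beside 3.32% and 5.19% of the rows it tested.

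The called genes were Solyc12g042770, Solyc01g095900 and Solyc07g053410. Solyc12g042770 had 388, 475 and 497 CPM in drought intervein libraries and 57.6, 128 and 52.8 CPM in drought vein libraries. The lowest intervein value was far above the highest vein value, and the log2 fold change was 2.64 ± 0.64 (SE, edgeR adjusted p = 0.0470). Solyc01g095900 had 160, 205 and 193 CPM against 36.7, 69.3 and 14.2 CPM, also without overlap, and its log2 fold change was 2.33 ± 0.55 (edgeR adjusted p = 0.0441). Solyc07g053410 had 76 counts in drought intervein libraries and 0 in drought vein libraries, a level at least 36.8-fold higher with a floor of 3 counts over the vein group (edgeR adjusted p = 0.0441).

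Single libraries moved that count of 3. It was 4 without vein drought 2 and 1 without intervein drought 2, beside 0.738% and 0.567% of all rows. It was 0 without vein drought 1 or 3, beside 0.0301% and 0.0753%, and without intervein drought 1 or 3, beside 0.176% and 0.0151%. Leaving out the 2 recovered libraries that stood away from their labels, which enter the shared estimate of the spread, raised it to 19, all higher in intervein, beside 1.36% of all rows called higher and 2.27% called lower. The metallocarboxypeptidase inhibitor gene was among the 19. Under drought Solyc07g007250 had 110, 1738 and 232 CPM in intervein and 0, 2.68 and 5.43 CPM in vein, and its adjusted p was 0.0513 with all libraries and 0.0241 without those 2 (edgeR).

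The photosynthesis members kept the sign of their tissue difference under drought, and none of the 12 photosynthesis genes passed the edgeR test. For the 6 members the fitted log2 fold changes ran between 1.33 and 2.47. Solyc02g085950 had 3822, 14302 and 3272 CPM in drought intervein libraries, against 383, 3334 and 390 CPM in drought vein libraries. The vein value of 3334 CPM belongs to vein drought 2, the library with the largest share of counts on the 200 genes among the drought vein libraries, and it lies above the lowest intervein value. How much that library's position adds to the overlap was not tested.

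In recovered plants the tissue difference was 0.85 on the log2 scale at the median, against -0.02 over all rows. It was above 0 for 194 members and above 1 for 63. In 2 members the 3 intervein libraries lay above the 3 vein libraries, where 1.84% of all rows did so. With edgeR, 0 members were called, as were 0% of all rows in either direction; 6 members had an unadjusted p under 0.05, and DESeq2 called 0, beside 0.0858% of rows higher and 0.0429% lower.

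Without the library labelled vein T2 recovered 2 and the library labelled intervein T2 recovered 1, the same difference had a median of 3.00, wider by the way these libraries were picked, with 196 members above 0 and 193 above 1. Then edgeR called 20 members, all higher in intervein, beside 0.724% of all rows called higher and 1.33% called lower. Each tissue was left with 2 recovered libraries, which are assumed to vary as the other groups do. Solyc01g006560 shows the libraries apart. It had 9.81, 138 and 135 CPM in intervein recovered libraries, against 0, 132 and 2.58 CPM in vein recovered libraries, so that vein library 2 stood at the intervein level and intervein library 1 nearer the vein level.

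Without those 2 libraries, 11 members were called in both drought and recovered plants, which is 57.9% of the 19 called under drought and 55% of the 20 called after rewatering. Over all rows, 74 were called higher in intervein in both, which is 27.4% of the 270 called higher under drought and 51.4% of the 144 called higher after rewatering. The shares carry the same dependence on which libraries were removed. All 11 were among the 30 members with the smallest fold between the highest and lowest watered intervein library, between 2.21 and 4.28. The watered libraries enter the shared estimate of the spread, so the test itself favours genes that are even there. This is a description and no trait of the tissue difference. Solyc12g042770 had 165, 604 and 327 CPM in intervein recovered and 95.3, 424 and 82.9 CPM in vein recovered libraries, and Solyc03g097870 had 29.3, 356 and 620 CPM against 9.10, 288 and 5.26 CPM. In Solyc12g042770 vein 2 lies above intervein 1 and 3. In Solyc03g097870 vein 2 lies above intervein 1, and intervein 1 lies above vein 1 and 3.

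**Figure D3:**
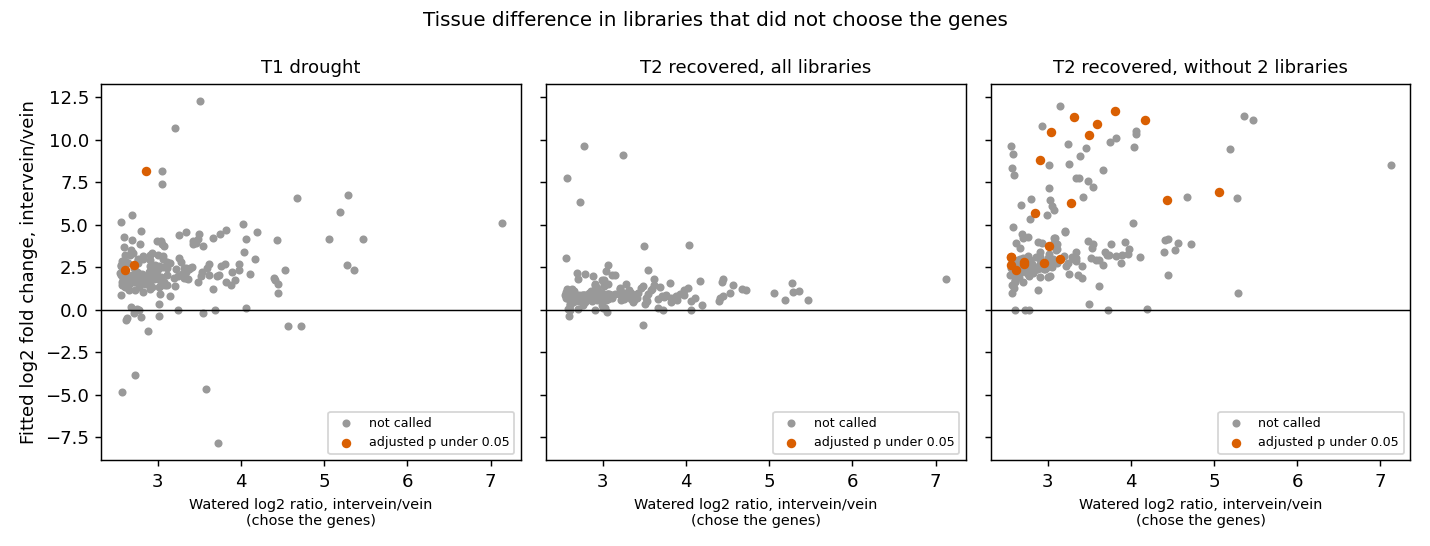
Fitted log2 fold change of intervein over vein (y axis) for each of the 200 genes against the watered log2 ratio that chose it (x axis), in drought plants of T1 with all libraries, in recovered plants of T2 with all libraries, and in recovered plants without the 2 libraries that stood away from their labels. Orange points passed the edgeR test, 3 in the first panel, 0 in the second and 20 in the last.

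Most of the set had lower values in drought intervein tissue. A small part was called, Rubisco small subunit gene rbcS1 included, and this part was 5%, near the 5.19% of all rows called in either direction. At T1, 168 of the 200 genes had a fitted log2 fold change below 0 in drought against watered intervein libraries, 129 of them below -1, and the median was -1.39, against -0.08 over all rows. In 36 members all drought libraries lay below all watered libraries and in 8 above, where 9.29% and 10.6% of all rows did so. The edgeR test called 10 members, all lower under drought, beside 2.68% of all rows called lower and 2.51% called higher; 60 members had an unadjusted p under 0.05. Without the 2 recovered libraries that stood away from their labels, 1 member was called higher and 15 lower, beside 2.57% and 3.68% of all rows, and DESeq2 called 1 higher and 34 lower, beside 5.82% and 8.28%. The watered T1 libraries helped to choose the genes for a high intervein level, which favours a lower drought value. With 200 genes chosen without the T1 watered libraries, 8 of the 199 tested were called, 2 higher and 6 lower, and the median was -1.17. These calls stand beside the same 2.51% of all rows called higher and 2.68% called lower, 5.19% in all. Calls in this list were thus not more frequent than over all rows.

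Of the photosynthesis members, rbcS1 was called lower in drought intervein tissue, and its call depended on the setting. Under other settings the call held in 3 fits and was lost in 8. Solyc02g063150 had 308, 1522 and 955 CPM in drought intervein libraries, against 2408, 5454 and 19166 CPM in watered ones, without overlap, and its log2 fold change was -3.72 ± 1.08 (SE, edgeR adjusted p = 0.0467). The 5 others were also lower without passing the test, with log2 fold changes between -1.75 and -2.95. Solyc02g085950 had 3822, 14302 and 3272 CPM under drought and 15116, 32645 and 74653 CPM with water, also without overlap (log2 fold change -2.88 ± 1.17, edgeR adjusted p = 0.147). Plastocyanin had 376, 937 and 435 CPM under drought and 693, 1706 and 4314 CPM with water, where 1 drought library exceeded the lowest watered one.

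Of the 6 photosynthesis genes outside the 200, 5 had log2 fold changes below 0 in drought intervein tissue, 1 was above 0 at 0.40 (carbonic anhydrase Solyc05g005490), and 1 was called lower, Solyc01g105050, which encodes a light-harvesting protein of the minor antenna (CP24). It had 32.3, 198 and 102 CPM in drought intervein libraries and 257, 616 and 3147 CPM in watered ones, without overlap (log2 fold change -4.07 ± 1.00, edgeR adjusted p = 0.0252).

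The largest called differences belonged to unnamed genes. Solyc06g069730 had 3 counts in all over the drought intervein libraries and 5542 over the watered ones, with 0, 0.396 and 0 CPM under drought against 3.42, 33.9 and 818 CPM with water (edgeR adjusted p = 0.0209). Solyc03g123410, rank 10, had 0, 1.19 and 0 CPM under drought against 7.30, 69.1 and 219 CPM with water (log2 fold change -8.31 ± 2.00, edgeR adjusted p = 0.0225). Both were low in every drought plant, and their watered levels differed by plant over more than 10-fold. The count of 10 was 13 without intervein watered 1, beside 4.41% of all rows. It was 4 without drought 1, drought 2 or watered 2, beside 4.92%, 3.23% and 1.03% of all rows. It was 0 without drought 3 or watered 3, beside 1.1% and 1.69%.

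Some members had higher values in drought intervein tissue without being called. Solyc10g085150 had 191, 120 and 164 CPM under drought and 59.3, 39.3 and 14.2 CPM with water, without overlap (log2 fold change 2.02 ± 0.66, edgeR adjusted p = 0.0728, and 0.0378 without the 2 recovered libraries that stood away from their labels). Solyc00g136560 had 41.4, 38.5 and 59.8 CPM under drought against 20.3, 12.5 and 1.42 CPM, also without overlap. The metallocarboxypeptidase inhibitor gene Solyc07g007250 had 110, 1738 and 232 CPM under drought and 76.1, 77.5 and 150 CPM with water, where the groups overlap. These genes were described after their values were seen.

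In vein tissue the same genes showed no common direction under drought. Their median log2 fold change was 0.03, near the -0.00 of all rows, with 101 members above 0. In 10 members all drought libraries lay above all watered ones and in 8 below, where 11.5% and 11.9% of all rows did so. With edgeR 0 members were called, beside 0.35% of all rows higher and 0.345% lower; 17 had an unadjusted p under 0.05, and DESeq2 called 8 higher and 3 lower, beside 2.16% and 2.63%. Without the 2 recovered libraries that stood away from their labels edgeR called 1 member, higher, beside 0.558% of rows higher and 0.689% lower. Without vein drought 2 the median was -0.86. Whether the drought response differs between the tissues was not tested, since the gap in watered plants chose the genes.

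After rewatering, members lay on both sides of watered plants of T2 in intervein tissue, and none passed the edgeR test. The median log2 fold change was 0.57, against 0.07 over all rows, with 132 members above 0 and 67 below, 68 above 1 and 38 below -1. In 12 members all recovered libraries lay above all watered ones and in 20 below, where 7.06% and 14.1% of all rows did so. The count of 0 called members stands beside 0.566% of all rows higher and 0.206% lower; 21 had an unadjusted p under 0.05, and DESeq2 called 4 higher and 4 lower, beside 5.03% and 2.25%. Without the 2 libraries that stood away from their labels the median was 1.04 and 0 were called, beside 0.312% of rows higher and 0.266% lower. The T2 watered libraries helped to choose the genes for a high intervein level. With 200 genes chosen without them, 0 were called and the median was 0.68. All 6 photosynthesis members had log2 fold changes above 0, between 0.65 and 3.02, or between 1.10 and 3.37 without those 2 libraries, and none was called. Solyc02g085950 had 17865, 43953 and 32242 CPM in recovered intervein libraries and 24284, 14181 and 5654 CPM in watered ones.

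In vein tissue most members had higher values in recovered than in watered libraries of T2, and 6 rose by the edgeR test with all libraries. The median log2 fold change was 3.00, against -0.00 over all rows, or 2.90 with genes at 0 counts in a group set to their bound. The watered T2 vein libraries helped to choose the genes for a low vein level, which favours a higher recovered value. With 200 genes chosen without the T2 watered libraries, 4 were called, all higher, and the median was 2.80. In 77 members all recovered libraries lay above all watered ones and in 1 below, where 7.89% and 24.4% of all rows did so. The edgeR test called 6 members higher and 0 lower, beside 1.38% and 0.19% of all rows; 140 had an unadjusted p under 0.05. DESeq2 called 112 higher and 0 lower, beside 7.58% and 2.14%. Without the library labelled vein T2 recovered 2 and the library labelled intervein T2 recovered 1, the median was 1.00, with 135 members above 0, and 0 were called, as were 0% of all rows.

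Among the 6, Solyc04g077400 had 9.64, 111 and 18.8 CPM in vein recovered libraries and 6.28, 5.27 and 8.42 CPM in watered ones (log2 fold change 3.41 ± 0.75, edgeR adjusted p = 0.0295). Solyc11g021365 had 37.7, 106 and 30.1 CPM against 12.6, 9.45 and 12.9 CPM (log2 fold change 2.84 ± 0.67, edgeR adjusted p = 0.0357). In both genes library 2 was the highest, and libraries 1 and 3 also lay above every watered library. Without the 2 libraries that stood away from their labels, the log2 fold changes were 1.34 (edgeR adjusted p = 0.355) for Solyc04g077400 and 1.74 (edgeR adjusted p = 0.197) for Solyc11g021365. The count of 6 was 61 without recovered 1, all higher, where 4.2% of all rows were called higher. It was 0 without any 1 of the other 5 vein libraries of T2, where 0% to 0.0703% of all rows were called.

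Recovered plants of T2 were last set against drought plants of T1 in intervein tissue, where neither group chose the genes but age and treatment change together. The median log2 fold change was 0.78, against 0.06 over all rows, with 148 members above 0. In 34 members all recovered libraries lay above all drought ones and in 11 below, where 10.3% and 10.5% of all rows did so. The edgeR test called 2 members higher and 2 lower, beside 1.84% and 1.27% of all rows; 40 had an unadjusted p under 0.05. DESeq2 called 17 higher and 6 lower, beside 7.23% and 4.47%.

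The 2 genes called higher in recovered plants were the 2 unnamed genes described above as near 0 under drought. Solyc03g123410 had 20.7, 78.8 and 37.6 CPM in recovered libraries, against 0, 1.19 and 0 CPM in drought libraries (log2 fold change 6.97 ± 1.91, edgeR adjusted p = 0.0464). Solyc06g069730 had 31.6, 162 and 33.8 CPM against 0, 0.396 and 0 CPM (edgeR adjusted p = 0.0476). This comparison shares its drought libraries with the drought against watered comparison above.

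The called lower genes went the other way. Solyc10g085150 had 5.32, 15.5 and 23.2 CPM in recovered libraries, against 191, 120 and 164 CPM in drought libraries (log2 fold change -3.29 ± 0.70, edgeR adjusted p = 0.0173). Solyc00g136560 had 0.458, 0.644 and 2.00 CPM against 41.4, 38.5 and 59.8 CPM (log2 fold change -5.37 ± 1.41, edgeR adjusted p = 0.0396). In both genes no library of a group reached the other group. The count of 4 was 0 without drought 3 or recovered 1, beside 0.11% and 1.06% of all rows. It was 1 without drought 2, recovered 2 or recovered 3, beside 1.62%, 1.16% and 1.69%, and it remained 4 without drought 1, beside 3.73%. Without the 2 libraries that stood away from their labels 1 member was called higher and 1 lower, beside 1.02% and 0.86% of all rows, and the median was 1.21. Solyc03g123410 (edgeR adjusted p = 0.0490) and Solyc10g085150 (0.0361) stayed called, while Solyc06g069730 (0.0584) and Solyc00g136560 (0.0962) did not.

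Of the photosynthesis members, all 6 had log2 fold changes above 0 in recovered against drought intervein tissue, between 0.71 and 2.98, and none was called. Without the 2 libraries that stood away from their labels the range was 1.06 to 3.41, with 0 called. rbcS1 (Solyc02g063150) had 3079, 11283 and 4340 CPM in recovered libraries and 308, 1522 and 955 CPM in drought ones, without overlap (log2 fold change 2.98 ± 1.04, edgeR adjusted p = 0.107, and 3.41 ± 1.05, edgeR adjusted p = 0.0848, without those 2 libraries). For Solyc02g085950 the values 17865, 43953 and 32242 CPM also lay above all 3 drought values.

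**Figure D4:**
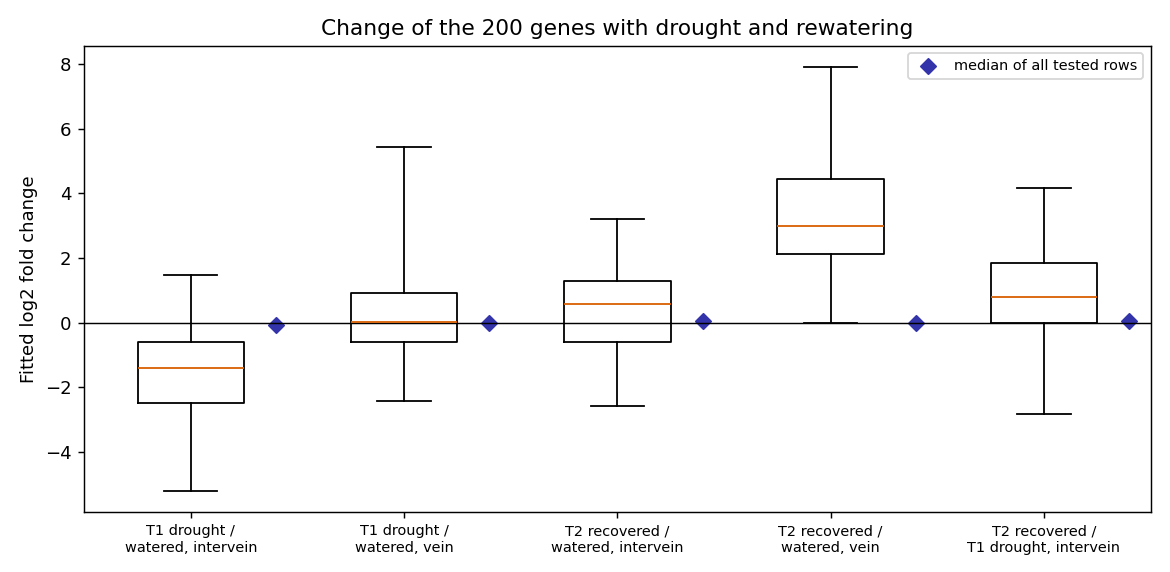
Distribution over the 200 genes of the fitted log2 fold change (y axis) in 5 comparisons (x axis), with the box at the quartiles, the line at the median and whiskers at the 5th and 95th percentiles; diamonds mark the median of all 19431 rows tested. The medians of the 200 genes are -1.39, 0.03, 0.57, 3.00 and 0.78 in the order drawn, and the 3.00 of vein tissue after rewatering was 1.00 without the 2 libraries that stood away from their labels.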

How the data were processed

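The 30 libraries came from a strand-specific mRNA kit, were sequenced together as short single reads and have no batch label, per the labels' protocols. The submitters' processing notes name HISAT2 2.1.0, FastQC 0.11.5, DESeq2 1.20.0 and StringTie 1.3.3b. The deposited values are raw counts per gene in a KBase matrix, per the file headers. Not given in the sources used here are genome build, annotation and the counting of reads with several matches. The authors' deposited drought comparisons were not used.

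CPM is the count over the library total. Fold changes were fitted with edgeR 4.0.16 in R 4.3.3 on the counts: filterByExpr kept 19431 rows, with 99.946% of the counts and all 200 members; TMM factors; 1 quasi-likelihood fit of the 30 libraries with 20 residual degrees of freedom; Benjamini-Hochberg over all rows; calls at adjusted p under 0.05. The 3 libraries of a group come from separate plants, per the labels. Counts were also fitted with DESeq2 1.42.0. The steps were tested on simulated counts with the same spread for all genes and no library standing apart. This checks that the steps run correctly and does not measure what could be detected in these data.

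The members and lists were chosen with earlier results of these data known. Genes are named by rank, level and, among called members, the largest log2 fold changes, lowered to 2 in each direction because identifiers have no names; others are marked. The files pair identifiers with UniProt entries; protein names for these come from general knowledge, and RefSeq symbols (assembly SLM_r2.1) were used for names only. Intervals on fold changes are standard errors from the fit.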

Additional observations from a re-analysis of the deposited data

How the results depend on the processing

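Counts of called members depended on the setting. The tests of all called members, printed above or not, and of the uncalled or outside genes followed with them kept their direction. Of their values under other settings, 137 stayed on their side of the threshold, 165 no longer passed it and 6 newly passed it. The 137 include genes that were not called and stayed so, such as 10 values of Solyc02g085950 for drought in intervein. Calls were thus lost more often than kept. Other tests of named genes could reverse in sign. For recovery in vein, threonine dehydratase Solyc09g008670 gave 2.35 ± 1.89 (SE) with all libraries. Without the 2 libraries that stood away from their labels it gave -7.40 ± 3.90 (edgeR adjusted p = 0.513). This gene averaged 2.50 CPM in watered vein libraries, so the size of its fold is uncertain. AMT1-3 Solyc03g045070 gave 1.32 ± 0.92 with all libraries and -0.07 ± 0.92 without those 2. Neither gene was called in either fit. Between tissues in recovered plants, Solyc07g007250 gave -0.10 with all libraries and 2.49 without those 2. With no filter on low counts, 0 members were called between tissues under drought and 6 for drought in intervein, beside 0.435% and 3.43% of all rows. For recovery in vein 3 were called and for recovered against drought 2, beside 0.831% and 2.06%. Fitting the compared groups alone gave 0, 0, 0 and 0 for these comparisons, beside 0.00603%, 0%, 0% and 0% of all rows. For drought in vein it gave 1, beside 1.95%. DESeq2 called 52 between tissues under drought, 35 and 11 for drought in intervein and vein, 8 and 112 for recovery in intervein and vein, and 23 for recovered against drought. Without the 2 libraries that stood away from their labels the counts were 19 and 20 between tissues under drought and in recovered plants, 16 and 1 for drought in intervein and vein, 0 for recovery in vein and 2 for recovered against drought. Leaving out 1 library gave 0 to 4 between tissues under drought, 0 to 0 in recovered plants, 0 to 13 and 0 to 0 for drought in intervein and vein, 0 to 0 and 0 to 61 for recovery in intervein and vein, and 0 to 4 for recovered against drought. The cause was not tested. Over all rows, 0% to 3.43% were called with no filter, 0% to 1.95% with the compared groups alone, 0% to 5.62% with 1 library left out and 0% to 4.31% with a block, over the 7 comparisons. Whether same-numbered libraries share a plant could not be told. The correlations of same-numbered deviations ran between -0.24 and 0.31, and not every library correlated best with its own number. With 3 libraries per group, and different treatments in most comparisons, such correlations cannot decide it. With the number as a replicate block, 4 and 0 members were called between tissues under drought and in recovered plants, beside 0.432% and 0% of all rows. For drought in intervein and vein 8 and 0 were called, beside 4.31% and 0.679%. For recovery in intervein and vein the counts were 0 and 1, beside 0.597% and 0.823%. For recovered against drought 2 were called, beside 2.38%. The median log2 fold change kept its sign in every comparison but drought in vein, where it ran between -0.86 and 0.44. The median of all rows moved by over 0.1 in some settings, to -0.27 for drought in intervein without drought library 2. With 3 plants per group that spread widely, small differences were not detectable, and large fitted differences were often not called either. Between tissues under drought, 176 members exceeded 1 on the log2 scale and 3 were called. A member that was not called may therefore still differ.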
